A study of Rattus norvegicus with 4 samples.

Results

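A set of 9 symbols of resident and lipid-handling macrophage genes were looked up in the dorsal root ganglia, which hold the cell bodies of sensory neurons, of male Sprague-Dawley (SD) rats. A row was taken when its gene symbol equalled Mrc1, Cd163, F13a1, Lyve1, Pf4, Gpnmb, Pla2g2d, Trem2 or Folr2. In all, 8 of the 9 symbols matched 1 row each of the 25629 features. Lyve1, a hyaluronan receptor of some resident macrophages and of lymphatic endothelium, matched none and was not analysed here. The samples were 4 single-cell libraries, Sham 1, Sham 2, CPIP 1 and CPIP 2, each made from the pooled ipsilateral L4-L6 ganglia of 3 rats. CPIP, not spelled out in the labels, is the usual short form of chronic post-ischaemia pain. The design text calls the rats of both groups wild type (WT) and naïve, and neither their age nor the time after surgery is stated in the labels. The comparison asked how ganglion cells of CPIP rats differ from those of sham rats. Where 4 values follow each other they are in the order Sham 1, Sham 2, CPIP 1, CPIP 2.

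Macrophages reside in ganglia and nerves beside neurons and glia, where they take up debris and scavenge proteins and lipids. Mrc1 (the mannose receptor CD206), Cd163 (the scavenger receptor for haemoglobin bound to haptoglobin) and Folr2 (folate receptor beta) are surface receptors that mark resident macrophages in many tissues. F13a1 (the A subunit of the cross-linking enzyme coagulation factor XIII) and Pf4 (the chemokine CXCL4, also abundant in platelets) are often found in the same cells. Trem2 is a lipid-sensing receptor that signals through the adaptor Tyrobp. Gpnmb is a transmembrane glycoprotein of lysosomes and melanosomes that is high in lipid-laden macrophages, and Pla2g2d is a secreted phospholipase A2.

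The promoters of 3 members are shown because of their levels, given below: F13a1 and Pla2g2d had most of their macrophage UMIs in 1 small sub-cluster, and Gpnmb was the member with the most counts outside macrophages. Each sequence is the 250 bases before the annotated start in the RefSeq table of GRCr8, read 5′ to 3′ on the gene's strand. The labels name no build for the counts. Capitals mark GAGGAA, the core bound by the myeloid factor PU.1, TCATGTG, the M-box bound by MITF and related factors, or CACGTG, an E-box, each searched on both strands. The windows lie at chr17:28020947-28021196, chr4:79340878-79341127 and chr5:156299382-156299631, all on the plus strand, for F13a1, Gpnmb and Pla2g2d.
F13a1: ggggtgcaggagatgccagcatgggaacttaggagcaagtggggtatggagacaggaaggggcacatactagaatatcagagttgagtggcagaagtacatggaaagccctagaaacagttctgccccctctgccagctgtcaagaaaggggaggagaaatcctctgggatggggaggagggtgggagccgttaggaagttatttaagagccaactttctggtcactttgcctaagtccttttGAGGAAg
Gpnmb: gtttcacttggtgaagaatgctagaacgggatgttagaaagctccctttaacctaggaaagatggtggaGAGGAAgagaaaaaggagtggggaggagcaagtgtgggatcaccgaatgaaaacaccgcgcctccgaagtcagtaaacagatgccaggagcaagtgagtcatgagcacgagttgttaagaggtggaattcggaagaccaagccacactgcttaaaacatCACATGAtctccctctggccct
Pla2g2d: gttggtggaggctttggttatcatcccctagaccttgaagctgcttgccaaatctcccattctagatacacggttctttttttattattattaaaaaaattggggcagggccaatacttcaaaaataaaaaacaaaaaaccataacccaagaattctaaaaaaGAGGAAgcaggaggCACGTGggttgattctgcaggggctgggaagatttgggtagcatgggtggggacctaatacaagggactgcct
The match of GAGGAA began 7 bases before the start in F13a1, 181 in Gpnmb and 87 in Pla2g2d. GAGGAA was found in 5 of the 7 members in the table (F13a1, Gpnmb, Mrc1, Pla2g2d and Trem2) and in 23.3% of all 33469 promoters of this length. TCATGTG was found in Gpnmb alone among the 7, 22 bases before the start and on the opposite strand, and in 3.07% of all promoters. CACGTG was found in Pla2g2d alone, 73 bases before the start, and in 5.59% of all promoters. Each match is a description of letters and not a bound site.

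The libraries held 11829 to 12828 cell barcodes and 60885664 to 64550637 UMIs (unique molecular identifiers, counted transcript molecules). After removal of barcodes with under 200 genes or over 25% mitochondrial UMIs, and of likely doublets, 44346 cells remained, between 10668 and 11566 in a library. Over all pairs of libraries, 19 barcodes were shared. Nothing in the labels ties a number to an animal, so p-values measure the spread between 2 pools per group. C1q-positive cells were the sub-clusters of the macrophage class in which at least 50% of cells had 2 or more UMIs of C1qa, C1qb and C1qc together, the chains of complement C1q that tissue macrophages make. Of the sub-clusters, the one just inside this limit had 70.2% of such cells and the one just outside had 40.6%. All 15 of the macrophage markers searched were detected in the C1q-positive cells. So were all matched markers of satellite glia (12), neurons (16), non-myelinating Schwann cells (10) and cycling cells (9). Each other marker list searched had a marker at 0. Detection alone therefore does not tell the class of these cells. The 4 libraries had 128, 99, 199 and 307 C1q-positive cells, 733 in all, with a median of 1952 UMIs. The members were kept out of the genes used for clustering. With them among those genes, 743 cells were C1q-positive, 732 of them the same, and no member's mean level moved by more than its SD over libraries. Since the limit was set for whole sub-clusters, 54 of the 733 C1q-positive cells had no C1q UMI and 69 had 1. Among the 206 other cells of the macrophage class, 24 had 5 or more C1q UMIs. Outside the macrophage class, 43350 of 43407 retained cells had no C1q UMI.

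Of the 8 members, 7 had their highest mean level in C1q-positive cells with no overlap with any other class over the 4 libraries, and Pla2g2d was the exception. Levels are CPM, the UMIs of a gene scaled to a total of 1000000 UMIs of the cells in question, and are compared within a gene and not between genes. No test was made between classes, since they come from the same cells. Cd163 stood at 129, 189, 294 and 287 CPM in the C1q-positive cells. Both CPIP libraries were the higher ones. These cells held 94.3% of the 401 Cd163 UMIs of all retained cells. Next came the C1q-low cells of the macrophage class (206 cells in a glia-led and a dendritic-like sub-cluster), at 0 to 54.8 CPM. Endothelial cells had no Cd163 UMI in 2923 cells, which allows up to 0.284 CPM by counting error alone.

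Folr2 was at 136, 112, 97.3 and 148 CPM in these cells, and the groups overlapped. They held 87.0% of its UMIs, and the C1q-low cells were at 0 to 39.1 CPM. Mrc1 was at 795, 1061, 1118 and 1096 CPM, with Sham 1 the lowest library and the others close together. C1q-positive cells held 73.6% of its UMIs and C1q-low cells, at 157 to 231 CPM, another 7.50%. Most of the rest, 14.7%, lay in neurons, which are described further on.

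Pf4 was at 1370, 1780, 1838 and 1412 CPM in C1q-positive cells, with the highest and the lowest CPIP library on either side of Sham 2. These cells held 90.2% of its UMIs. C1q-low cells (130 to 174 CPM) and a mixed leukocyte cluster led by S100a9, S100a8 and Camp (5.40 to 153 CPM) came next, and their ranges overlapped. Since Pf4 is also a platelet gene, the platelet markers were counted in the same C1q-positive cells. Of these, 6 of 9 (Ppbp, Gp9, Gp1bb, Gp1ba, Clec1b and Gp6) were at 0, and all 9 together made 0 to 7.36 CPM. F13a1 was at 258, 81.6, 240 and 400 CPM, so Sham 2 was far below the other 3 libraries. The C1q-positive cells held 71.0% of F13a1 UMIs, C1q-low cells were at 0 to 62.6 CPM, and neurons held 21.9%.

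Among the lipid-handling members, Trem2 was at 40.5, 71.4, 102 and 77.2 CPM in C1q-positive cells, from 11, 14, 43 and 49 UMIs. Both CPIP libraries were above both Sham libraries, though by few UMIs. These cells held 90.0% of its UMIs, and the C1q-low cells were at 4.35 to 11.7 CPM. Pla2g2d was at 202, 5.10, 73.6 and 251 CPM, from 55, 1, 31 and 159 UMIs. Its libraries differed more than its groups did, as Sham 1 was above CPIP 1 and Sham 2 had a single UMI. Its range overlapped those of the C1q-low cells (20.5 to 123 CPM) and of the mixed leukocyte cluster (13.9 to 89.4 CPM), so its order over these 3 populations was not resolved. C1q-positive cells held 67.0%, C1q-low cells 15.5% and the leukocyte cluster 8.17% of its UMIs.

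Gpnmb was broader than the other members. It was at 228, 230, 449 and 426 CPM in C1q-positive cells, with the groups apart, yet these cells held 12.2% of its 4655 UMIs. Fibroblasts were second, at 140, 133, 166 and 155 CPM, with 34.2% to 35.8% of cells holding a UMI. Satellite glia, the cells that wrap neuron bodies, were at 28.0, 27.6, 34.8 and 21.3 CPM and held 53.0% of the UMIs because of their 14852 cells. Non-myelinating Schwann cells, at 27.6 ± 2.03 CPM (SD, n = 4), and the erythroid cluster, at 16.9 to 36.7 CPM, overlapped satellite glia. Neurons, at 2.38 to 8.04 CPM, held 10.7% of the UMIs.

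The share of satellite glia with a Gpnmb UMI was 9.57% to 14.1% over the libraries. In the same glia a UMI of Pf4, a member with far more UMIs than Gpnmb in C1q-positive cells, was seen in 0.0537% to 0.203% of cells, and Trem2 in none. Within satellite glia Gpnmb was highest in the cluster led by Inhba and Cxcl11 (33.6 CPM over 5193 cells), then 24.1 CPM in the cluster led by Fabp7 and 19.3 CPM in the one led by Hpdl and Pou3f2. Gpnmb is also a pigment cell gene. Of 6 melanocyte markers counted in the C1q-positive cells, Pmel, Mlana and Tyr were at 0, and all 6 together made 95.7, 138, 154 and 134 CPM. Their part in the Gpnmb level was not tested.

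**Figure D1:**
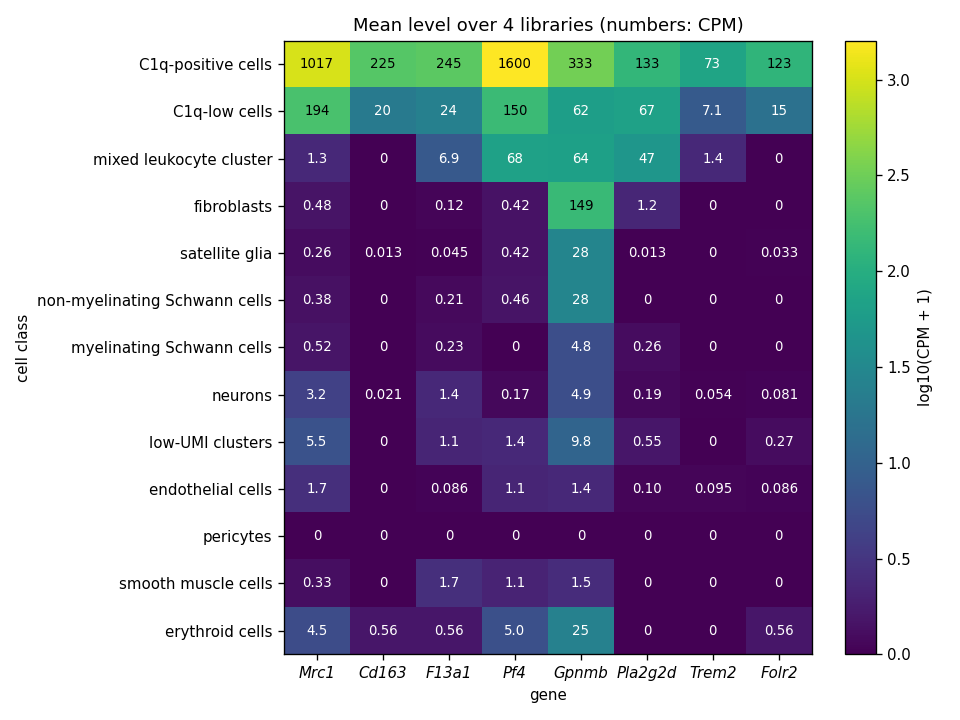
Mean level of each member over the 4 libraries in 13 cell classes, with the CPM printed in each field and the colour giving log10(CPM + 1). The top row (C1q-positive cells) has the highest mean in every column, and only Gpnmb stays above 20 CPM in fibroblasts, satellite glia and non-myelinating Schwann cells.

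Mrc1 and F13a1 had low counts in neurons. The share of neurons with an Mrc1 UMI was 3.37%, 2.42%, 2.44% and 2.37%, at 2.51 to 4.19 CPM. Satellite glia, of a like median depth (5454 against 5911.5 UMIs), had 0.0806% to 0.260%, at 0.123 to 0.429 CPM. Neurons with an Mrc1 UMI were deeper than their class, at a median of 10842.5 UMIs. Low-UMI clusters, with a median of 720 UMIs, had Mrc1 at 3.46 to 8.13 CPM, from 34 UMIs. Of 280 neurons with an Mrc1 UMI, 247 had 1 and 33 had 2 or more, and 2 had a C1q UMI. F13a1 was seen in 1.05% to 1.62% of neurons and in 0.0250% to 0.0289% of satellite glia, and 1 of 134 such neurons had a C1q UMI. Cd163, by contrast, was seen in at most 0.0438% of the neurons of a library. Mrc1 was at 4.60 CPM in the Mrgprb4-led neuron cluster and at 4.02 CPM in the one led by Crh and Iapp. F13a1 was highest, at 3.14 CPM from 16 UMIs, in the cluster led by Penk and Pnoc, which also has Trpm8 among its leading genes. Strand is not described in the labels, so reads of an overlapping or antisense transcript cannot be told apart from these.

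Within the C1q-positive cells the members fell into different patterns over the sub-clusters, which are given by number and by their leading genes. Sub-cluster 0 (126 cells) was led by Slc7a11, Il1rn and Ptgs2, and sub-cluster 1 (213 cells) by Il1a, Hpgds and Cxcl3. Sub-cluster 2 (285 cells) was led by Arl4d, Hspa1b, Apod and Klf2. Apod is 1 of the 14 fibroblast markers, and sub-cluster 2, with a median of 1369 UMIs, was given no class name. Sub-cluster 3 (79 cells) was led by C6, Duox1 and Duoxa1, with Pla2g2d and F13a1 among its 10 leading genes. A further 30 C1q-positive cells were led by neuronal genes. Sub-cluster 3 held 12, 0, 13 and 54 cells of the libraries, which were 9.38%, 0%, 6.53% and 17.6% of the C1q-positive cells. In Sham 2, 0 of 99 cells does not show that the type was missing from that pool. Since sub-clusters come from the same cells, the values that follow are descriptions.

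F13a1 stood at 1693 CPM in sub-cluster 3 and at 76.8, 116 and 83.3 CPM in sub-clusters 0, 1 and 2, all libraries pooled. This sub-cluster held 71.9% of the F13a1 UMIs of the C1q-positive cells. Pla2g2d stood at 1154 CPM there against 38.4, 11.0 and 14.3 CPM, with 87.8% of its UMIs. These 79 cells thus held most UMIs of both genes, and Sham 2, the library with 0 of them, had the lowest level of both. In CPIP 2, the library with the most such cells, F13a1 was at 1645 and Pla2g2d at 1169 CPM inside the sub-cluster.

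Folr2 and Trem2 were also highest in sub-cluster 3. Folr2 was at 342 CPM there and at 38.4, 138 and 117 CPM in sub-clusters 0, 1 and 2. Trem2 was at 166 CPM from 31 UMIs, against 60.3, 70.2 and 66.6 CPM. Gpnmb had 2 high sub-clusters, with 1132 CPM in sub-cluster 3 and 537 CPM in sub-cluster 0, against 193 and 133 CPM in sub-clusters 1 and 2. Of the 196 UMIs in sub-cluster 0, 105 came from 2 cells, 1 of each CPIP library, and without them its level was 256 CPM.

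The scavenger receptors and Pf4 were lowest in sub-cluster 0. Cd163 was at 11.0 CPM there, from 4 UMIs that all came from CPIP 2, against 371, 255 and 449 CPM in sub-clusters 1, 2 and 3. Mrc1 was at 233 CPM in sub-cluster 0, at 1650 and 1247 CPM in sub-clusters 1 and 2, and at 860 CPM in sub-cluster 3. In sub-cluster 0 its libraries lay between 204 and 262 CPM, below every library of sub-clusters 1 (911 to 1883 CPM) and 2 (1098 to 1425 CPM). Pf4 was likewise lowest in sub-cluster 0 and highest in sub-cluster 1, with 433 CPM in sub-cluster 0 against 2506, 1521 and 1939 CPM.

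**Figure D2:**
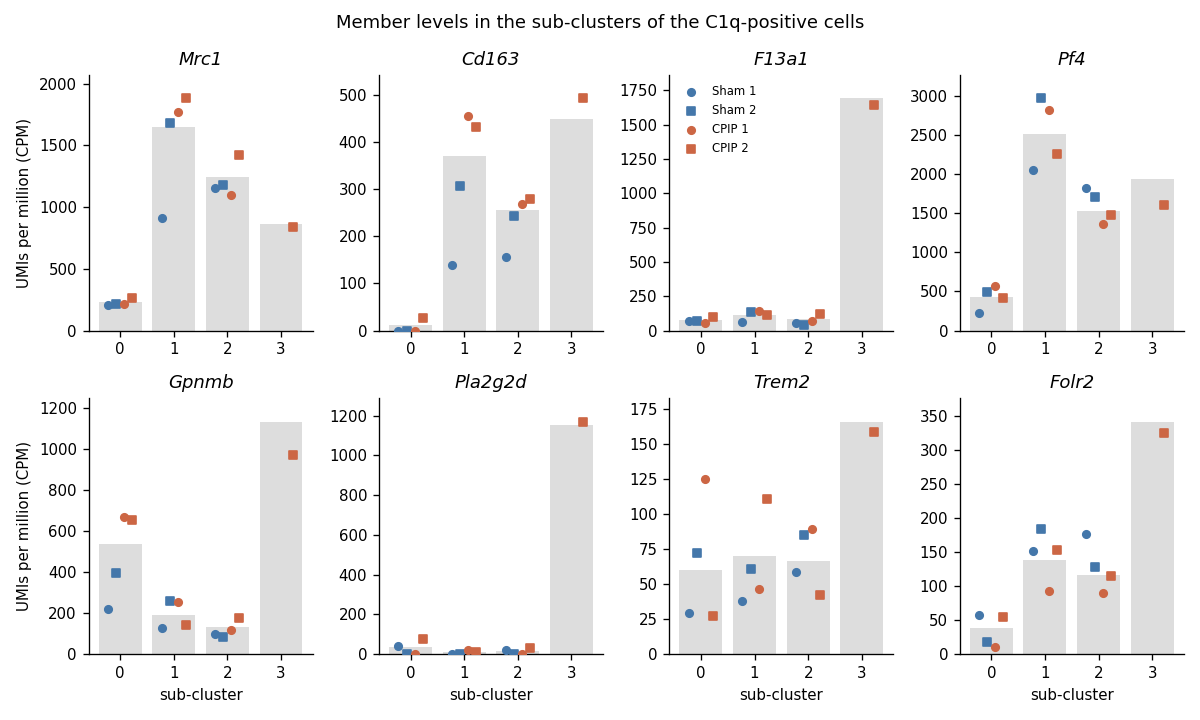
Member levels in CPM in sub-clusters 0 to 3 of the C1q-positive cells. Grey bars pool the 4 libraries and points are libraries with at least 15 cells, so sub-cluster 3 has a point for CPIP 2 only. F13a1 and Pla2g2d exceed 1000 CPM in sub-cluster 3 alone, while Mrc1, Cd163 and Pf4 are lowest in sub-cluster 0.

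Cells of the fibroblast class and fibroblast RNA had a like order of libraries. Fibroblasts made up 1.47%, 0.628%, 1.67% and 4.18% of the retained cells. The 14 fibroblast markers summed to 291, 199, 480 and 1862 CPM in the C1q-positive cells, with Slc6a13 and Slc22a6 at 0. Fibroblasts themselves had F13a1 at 0 to 0.475 CPM and Pla2g2d at 0 to 4.75 CPM. What part fibroblast content has in the differences between libraries, those of F13a1 and Pla2g2d among them, was not tested. RNA of neuron and glia markers was also present in the C1q-positive cells. The 16 matched neuron markers summed to 2610, 1397, 1351 and 2019 CPM there. The 12 satellite glia markers summed to 1653, 2015, 1752 and 2070 CPM, and the 15 macrophage markers to 21659, 21017, 22177 and 22342 CPM. The part of neuron and glia RNA in the members' levels was not tested.

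Most C1q-positive cells had a UMI of at least 1 member. Of the 733 C1q-positive cells, 64 (8.73%) had no UMI of any member, 145 had 1 member, 341 had 2 or 3, and 183 had 4 or more. The share with 4 or more was 17.2%, 21.2%, 23.1% and 30.6%, lowest in Sham 1 and highest in CPIP 2. Pf4 was seen in 539 cells and Mrc1 in 497, while Pla2g2d was seen in 79 and Trem2 in 104.

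To compare cells at 1 depth, each cell was thinned to 1000 UMIs, which left 629 cells and dropped 13, 18, 29 and 44 shallower ones. Mrc1 was then seen in 43.5%, 54.3%, 55.9% and 60.1% of cells, and in 59.4%, 68.7%, 70.4% and 69.4% unthinned. Cd163 was seen in 11.3%, 17.3%, 20.6% and 20.9% thinned, and in 15.6%, 25.3%, 30.7% and 27.7% unthinned. For both receptors Sham 1 was the lowest library and both CPIP libraries were the highest, with Sham 2 close to them. Gpnmb was seen in 13.9%, 13.6%, 17.1% and 16.7% of thinned cells and in 24.2%, 19.2%, 22.6% and 25.7% unthinned, so the shares overlapped between groups without thinning.

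Pairs of members were then counted in the 629 thinned cells, beside the number that the product of their shares gives in each library, for all 28 pairs. Values are descriptions without a test, and correlations in such sparse counts were weak. The pairs among Mrc1, Cd163 and Pf4 all exceeded the product. A UMI of both Mrc1 and Cd163 was seen in 94 cells against 65.9 from the product (11, 12, 30 and 41 cells against 5.65, 7.60, 19.6 and 33.0 by library). Cd163 and Pf4 were seen together in 103 cells against 75.5, and Mrc1 and Pf4 in 252 against 223. All 3 pairs were above the product in 4 of 4 libraries, with Pearson r of 0.30, 0.28 and 0.27 over cells.

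Pla2g2d paired with F13a1 and Gpnmb. Pla2g2d and F13a1 were seen together in 32 cells against 9.15, of which CPIP 2 gave 27 against 7.76, Sham 1 gave 4 and CPIP 1 gave 1 (r = 0.43). Pla2g2d and Gpnmb were seen together in 32 cells against 9.28, with 6, 7 and 19 cells in Sham 1, CPIP 1 and CPIP 2 (r = 0.35). Sham 2 had no thinned cell with Pla2g2d and gave no value for either pair. Cd163 and F13a1 were seen together in 32 cells against 15.8, above the product in 4 of 4 libraries (r = 0.20). F13a1 was also above it in 4 of 4 libraries with Mrc1 (56 against 45.8, r = 0.10) and with Pf4 (57 against 51.3, r = 0.05). So were Mrc1 with Folr2 (38 against 32.8) and Cd163 with Gpnmb (22 against 18.9).

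Pairs with Trem2 rested on few cells. Trem2 and Mrc1 were seen together in 22 cells against 25.6, Trem2 and Cd163 in 8 against 8.89, and Trem2 and Folr2 in 2 against 4.13. The first 2 of these pairs were above the product in 2 of 4 libraries, the last in 0. Gpnmb and Mrc1 were seen together in 56 cells against 55.6, a count equal to the product within 1 cell.

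**Figure D3:**
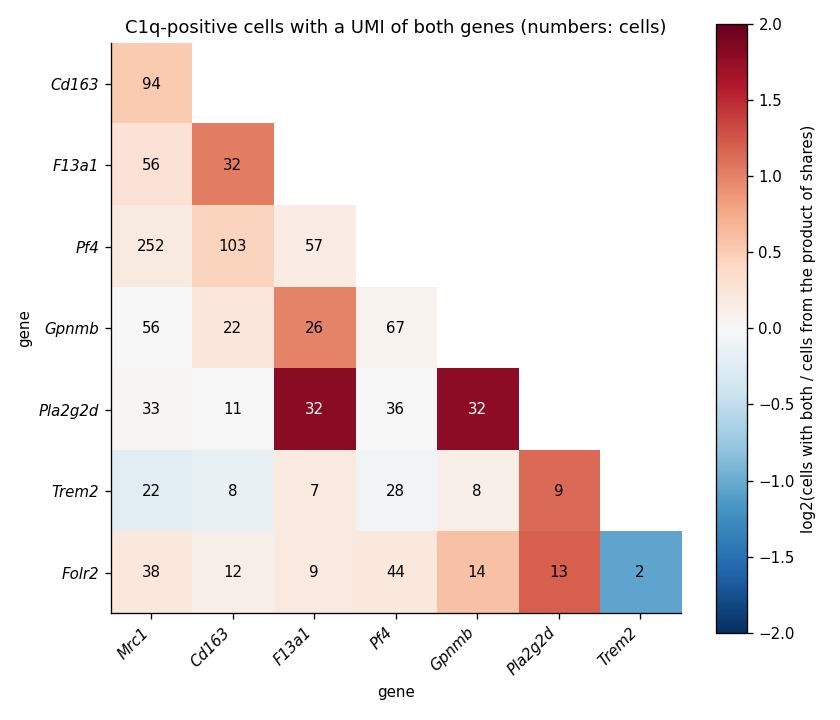
Numbers are C1q-positive cells, thinned to 1000 UMIs, with a UMI of both genes, and colour is the log2 ratio of that number to the one from the product of the genes' shares. The strongest colours are Pla2g2d with F13a1 and with Gpnmb (32 cells each), and the largest number is Mrc1 with Pf4 (252 cells).

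The genes most like each member were taken over 19 units, each a sub-cluster of the macrophage class in 1 library with at least 15 cells, as the highest Pearson r of log2(CPM + 10) among 3097 genes with at least 100 UMIs. Units of a library share its rats and units of a sub-cluster share the genes that defined it, so these are descriptions with no p. Mrc1 was most like Dab2 (r = 0.93), Cd163 (0.92) and Stab1 (0.90), and Cd163 was most like Mrc1, Colec12 (0.91) and Hbegf (0.90). Dab2 is an endocytic adaptor, and Stab1 and Colec12 are scavenger receptors. Pf4 was most like C5ar2 (0.97), Cndp1 (0.96) and Slco2b1 (0.95), and Folr2 was most like Selenop (0.91), Cndp1 (0.90) and Cemip2 (0.89). F13a1 and Trem2 both had C1qb first, at 0.85 and 0.92. F13a1 was next most like Tmem176a (0.85) and Cfb (0.84), and Trem2 like the lysosomal protease gene Ctsb (0.90). Gpnmb was most like the lysozyme gene Lyz2 (0.80), AABR07002969.1 (0.80) and Pim3 (0.79). Pla2g2d was most like Anxa5 (0.79), S100a6 (0.78) and Anxa2 (0.71), and its r with each other member lay between -0.28 and 0.28. The same-unit r between members was highest for Mrc1 and Cd163, and r was 0.86 for Mrc1 and Pf4 and 0.88 for Cd163 and Folr2. Trem2 had r of 0.62, 0.63 and 0.71 with Mrc1, Cd163 and Folr2 over these units. Its pairs in single cells are no like comparison, as they used C1q-positive cells only. The units also included the glia-led and the dendritic-like C1q-low sub-clusters, with Trem2 at 15.2 and 0 CPM, all libraries pooled. The dendritic-like one entered with each library, with Pla2g2d at 238, 0, 39.9 and 135 CPM. Sub-cluster 3, with 87.8% of the Pla2g2d UMIs of the C1q-positive cells, entered for CPIP 2 only. It held 12, 0 and 13 cells in Sham 1, Sham 2 and CPIP 1. How far any r over the units reflects C1q-positive against C1q-low cells, or which units were kept, was not tested.

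C1q-positive cells made up 1.19%, 0.928%, 1.72% and 2.70% of retained cells. The CPIP mean was 2.21% ± 0.692 (SD, n = 2) and the Sham mean 1.06% ± 0.186 (SD, n = 2), a log2 ratio of 1.06. The groups did not overlap, but the two-sided exact permutation test gave p = 0.33, the smallest that 2 against 2 libraries allow.

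Inside the C1q-positive cells no member was called between CPIP and Sham at an adjusted p under 0.05. The test was edgeR's quasi-likelihood test on UMIs summed per library. Called genes were 0 of 4650 (0%), with 196 (4.22%) at an unadjusted p under 0.05 and 0 called by DESeq2 (48 unadjusted). All 8 members had positive log2 fold changes of CPIP over Sham, with a median of 0.67 against 0.0053 for all genes tested. Both CPIP libraries lay above both Sham libraries for 4 of the 8, Mrc1, Cd163, Gpnmb and Trem2, where 16.2% of all genes tested did so. Of these 8, 3 members, Cd163, F13a1 and Gpnmb, had an unadjusted p under 0.05. The members were chosen with earlier results of these data known and share sub-clusters, so these counts are descriptions and not separate support. The levels in the next paragraphs are normalised CPM of the fit.

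Gpnmb had the second smallest p of all 4650 genes. It was at 245, 241, 483 and 468 CPM, nearly equal within each group. The fit gave a log2 fold change of 0.97 (SE 0.19, edgeR adjusted p = 0.936). The adjusted p ranged from 0.00777 to 1.00 over the alternatives of processing, and the low value came without the low-count filter, where 27 genes were called. The difference lay partly in a few cells. Among cells with a Gpnmb UMI, the mean was 2.00, 2.37, 4.20 and 3.42 UMIs. A single cell of sub-cluster 0 held 46 of the 189 UMIs of CPIP 1 (24.3%), and another held 59 of the 270 of CPIP 2 (21.9%).

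Without the richest cell of each library, Gpnmb was at 209, 186, 344 and 334 CPM, and the groups stayed apart. In sub-cluster 0 Gpnmb was at 219, 396, 669 and 655 CPM, but the 2 richest CPIP cells lay there. Without the richest cell of each library in sub-cluster 0, it was at 153, 280, 200 and 254 CPM, and the groups overlapped. In sub-cluster 2 it was at 98.1, 85.3, 120 and 176 CPM, from 5, 6, 16 and 29 UMIs. Both CPIP libraries were the higher ones there, but so few UMIs do not resolve Sham 1 from CPIP 1. In sub-cluster 1 Gpnmb was at 127, 260, 254 and 142 CPM, where the groups overlapped. Without sub-cluster 3, which held 27, 0, 69 and 116 Gpnmb UMIs, the log2 fold change was 0.74. That value still counted the richest cells of sub-cluster 0. The C1q-positive levels without the richest cell of each library still included sub-cluster 3. Whether the groups stay apart with both left out was not tested.

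Cd163 was at 138, 198, 317 and 316 CPM, with both CPIP libraries alike. It had a log2 fold change of 0.93 (SE 0.24, edgeR adjusted p = 0.999, rank 6 of all genes by p). Leaving out Sham 2 gave 1.20 with an edgeR adjusted p of 0.0431, and the other alternatives did not call it. In sub-cluster 1 the libraries stood at 139, 306, 455 and 432 CPM, from 11, 20, 68 and 70 UMIs. In sub-cluster 2 they stood at 157, 242, 269 and 279 CPM, from 8, 17, 36 and 46 UMIs. Both CPIP libraries were the higher ones in both sub-clusters, though from few Sham UMIs. In sub-cluster 2 such counts do not resolve Sham 2 from CPIP 1. Mrc1, at 853, 1114, 1203 and 1205 CPM, had a log2 fold change of 0.30 (SE 0.17). Trem2, at 43.4, 75.0, 110 and 85.0 CPM, had 0.74 (SE 0.36). This ranged from 0.35 without sub-cluster 3 to 1.86 in cells with at least 5 C1q UMIs, and was 1.15 without Sham 2 and 0.37 without Sham 1. For Mrc1 and Trem2, the CPIP libraries were above the Sham libraries and the edgeR adjusted p was 0.999.

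F13a1 was at 276, 85.7, 258 and 440 CPM, and the groups overlapped. The fit gave 0.90 on the log2 scale (SE 0.40, edgeR adjusted p = 0.999), and 0.55 without sub-cluster 3. F13a1 was called when Sham 1 was left out (log2 2.05, edgeR adjusted p = 9.68e-04) and when CPIP 1 was left out (1.23, 0.00686). Pla2g2d was at 217, 5.35, 79.2 and 276 CPM, with a log2 fold change of 0.60 (SE 0.75, edgeR adjusted p = 0.999). It reached 5.03 (edgeR adjusted p = 4.29e-04) without Sham 1, when Sham 2 with its single UMI was the only Sham library. It was -0.59 without CPIP 2 and -0.23 without Sham 2. The sign of Pla2g2d therefore rested on single libraries, as did the call of F13a1.

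Pf4 and Folr2 were nearly level between the groups. Pf4 was at 1469, 1868, 1977 and 1554 CPM, with a log2 fold change of 0.08 (SE 0.17). Folr2 was at 146, 118, 105 and 163 CPM, with 0.03 (SE 0.30). The groups overlapped for both, and the sign of each turned under some alternatives.

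**Figure D4:**
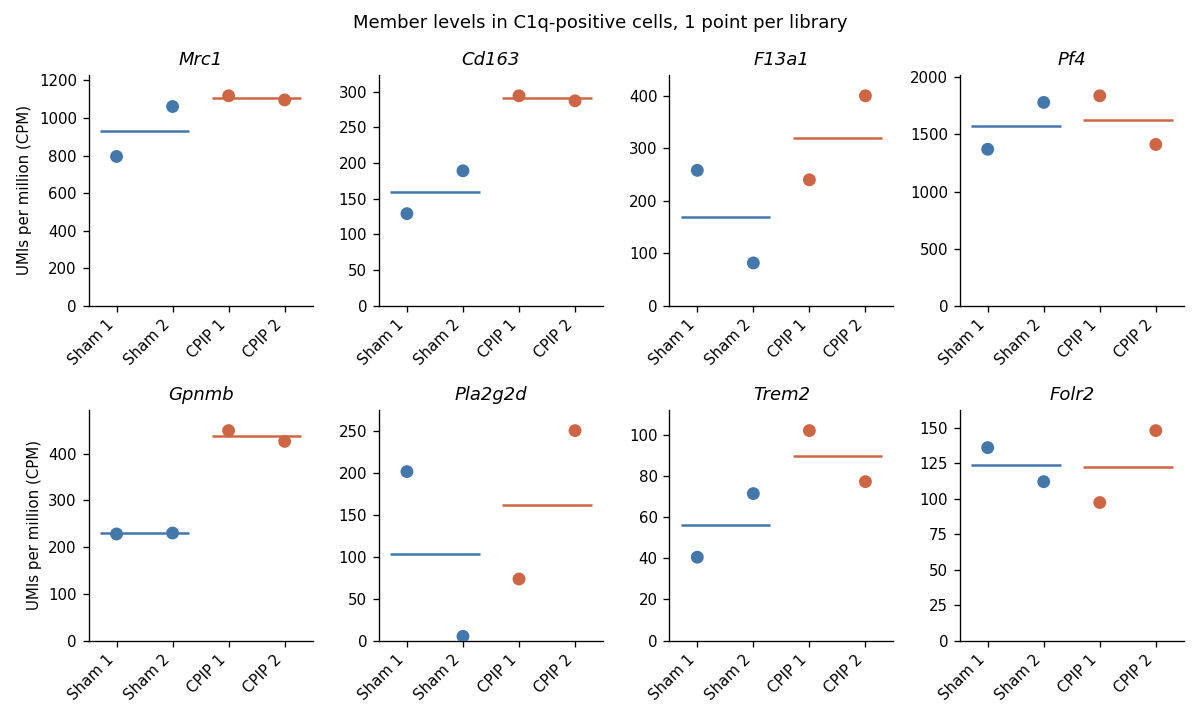
Level of each member in the C1q-positive cells of each library, in CPM before normalisation between libraries. Blue points are Sham, orange points are CPIP, and lines are group means of 2 libraries. Gpnmb and Cd163 show both CPIP libraries well above both Sham libraries, and F13a1 and Pla2g2d show the low Sham 2 library.

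Other genes of the same kinds were counted from lists. Of 26 other resident macrophage genes, 17 were tested in C1q-positive cells and 0 were called, with 10 positive log2 fold changes and a median of 0.13. Selenop, a selenium carrier, and Hmox1, the haem-degrading enzyme, had the highest levels of the list and log2 fold changes of -0.04 (SE 0.15) and 0.13 (SE 0.15). Of 32 other lipid-handling genes, 25 were tested, 0 were called and 13 were positive, with a median of 0.0046. Both CPIP libraries were above both Sham libraries for 0 of the 25 and below for 7, against 16.2% above and 16.7% below among all genes. The same counts were 5 above and 3 below of the 17 other resident genes, 4 and 5 of 24 general genes, and 2 and 3 of 13 inflammatory genes. The cathepsin gene Ctsb had a log2 fold change of 0.11 (SE 0.13), and the tetraspanin gene Cd63 had 0.14 (SE 0.15). Of 28 general macrophage genes, 24 were tested, 0 were called and 12 were positive, with a median of -0.0037. The lysozyme gene Lyz2 and the invariant chain gene Cd74 had log2 fold changes of 0.11 (SE 0.10) and 0.02 (SE 0.16). Of 25 monocyte-derived and inflammatory genes, 13 were tested, 0 were called and 8 were positive, with a median of 0.023. The chemokine gene Cxcl2 had 0.12 (SE 0.16), and Il1b, the interleukin-1 beta gene, had 0.19 (SE 0.13). Among all genes tested, 50.8% were positive. The lists were chosen with earlier results of these data known.

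Over all retained cells the members' log2 fold changes were larger, except that of Gpnmb. In such sums, more macrophages and more RNA of a gene per macrophage cannot be told apart, and the share of C1q-positive cells differed between the groups as given above. The edgeR test called 0 of 15901 genes (0%), with 801 (5.04%) at an unadjusted p under 0.05, and DESeq2 called 56 (608 unadjusted). All 8 members were positive, with a median of 1.3 against 0.012 for all genes. Both CPIP libraries were above both Sham libraries for 7 of the 8, where 18.5% of all genes did so, and Pla2g2d was the exception. These counts too are descriptions, as the members were chosen with earlier results of these data known.

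Cd163 was at 0.696, 0.629, 2.23 and 3.40 CPM of all cells, a log2 fold change of 2.08 (SE 0.28, edgeR adjusted p = 0.847). Trem2 was at 0.214, 0.255, 0.818 and 0.968 CPM, a log2 fold change of 1.92 (SE 0.28, edgeR adjusted p = 0.847). Pf4 was at 7.91, 6.36, 14.9 and 16.9 CPM, with 1.16 (SE 0.16), and Mrc1 at 6.73, 5.53, 10.8 and 14.5 CPM, with 1.04 (SE 0.20). In these 4 genes the Sham and CPIP libraries did not overlap. DESeq2 called Pf4 (adjusted p = 2.00e-05), Cd163 (7.73e-04) and Mrc1 (0.00786) among its 56 called genes. No share of all genes tested is given for DESeq2 here, so these calls are descriptions. Leaving out CPIP 1, the edgeR log2 fold changes were 1.23 for Pf4, 2.35 for Cd163, 1.23 for Mrc1 and 2.02 for Trem2.

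F13a1 was at 1.98, 1.05, 2.59 and 5.17 CPM of all cells, with a log2 fold change of 1.35 (SE 0.45), and Folr2 at 0.786, 0.442, 0.801 and 1.85 CPM, with 1.11 (SE 0.51). Pla2g2d was at 1.66, 0.136, 0.766 and 3.84 CPM, with 1.36 (SE 1.16), and turned to -0.22 without CPIP 2. Gpnmb was at 18.7, 16.8, 23.3 and 22.2 CPM, with 0.36 (SE 0.10). Satellite glia, which held 53.0% of its UMIs, gave 560, 675, 729 and 504 of them. C1q-positive cells gave 62, 45, 189 and 270, and fibroblasts gave 98, 31, 138 and 326. The part of each class in the Gpnmb difference over all cells was not tested. The edgeR adjusted p was 0.859 for F13a1, Folr2 and Gpnmb and 0.862 for Pla2g2d.

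**Figure D5:**
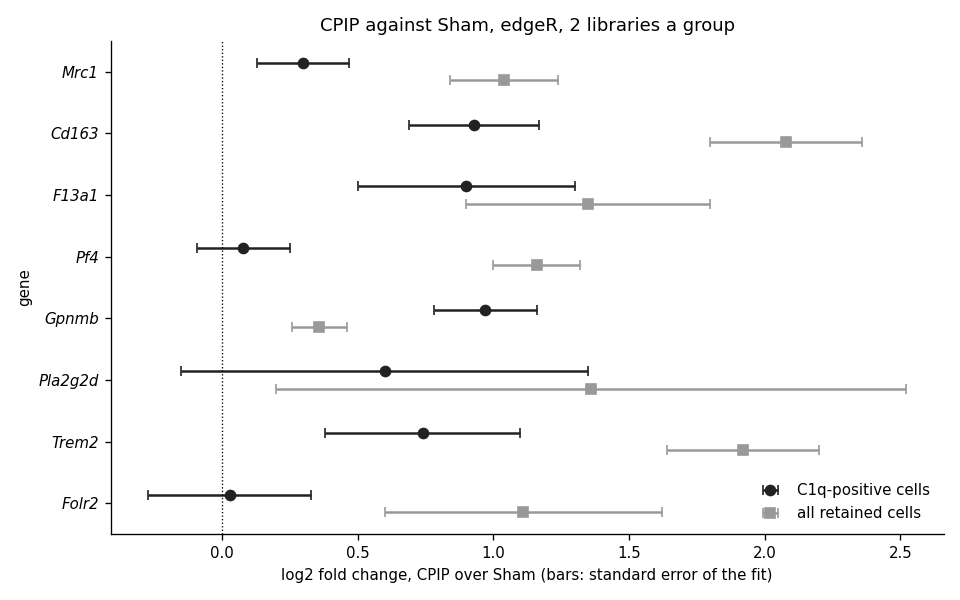
Points are log2 fold changes (CPIP over Sham) and bars are standard errors from edgeR, in C1q-positive cells (black circles) and over all retained cells (grey squares), 2 libraries a group. All 16 points are above 0, from 0.03 for Folr2 to 2.08 for Cd163, and Gpnmb is the member with the smaller value over all cells.

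Elsewhere, among classes that had 100 or more cells in each library, few members had enough counts to be tested, and none was called. Those classes had 3 called genes in 69864 tests of gene and class (0.00429%). In neurons, Gpnmb was at 8.03, 4.39, 4.97 and 2.38 CPM (log2 -0.76, SE 0.43) and Mrc1 at 4.19, 3.01, 3.00 and 2.51 CPM (log2 -0.39, SE 0.24), both with an edgeR adjusted p of 0.966. F13a1 in neurons had a log2 fold change of 0.09 (SE 0.32). Gpnmb had a log2 fold change of 0.03 (SE 0.24) in satellite glia, -0.16 (SE 0.17) in non-myelinating Schwann cells and -0.56 (SE 0.42) in the low-UMI clusters. Pf4 in satellite glia had 0.64 (SE 0.85), from 36 UMIs. Whether the fold change of Gpnmb in C1q-positive cells differs from those in neurons and glia was not tested. Fibroblasts had fewer than 100 cells in Sham 2 and were not tested.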

How the data were processed

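The authors deposited unnormalized UMI counts, 1 matrix per library, per the file headers and the whole numbers they hold. Capture was on the BD Rhapsody microwell system, per the labels' protocols. For the aligner, annotation, genome build and cell calling: not given in the sources used here. The members and gene lists were chosen with earlier results of these data known.

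Barcodes with at least 200 genes and at most 25% mitochondrial UMIs were kept. Scrublet in scanpy 1.11.5 marked 1, 4, 2 and 278 cells (Sham 1, Sham 2, CPIP 1, CPIP 2) and was taken to have failed in 3 libraries, so the 5% of cells with the highest doublet scores were removed in every library. Leiden clustering (resolution 1, and 0.5 within macrophages) used 15 neighbours on 30 principal components of 2000 variable genes, members left out. Classes were named from marker lists, so a name means likeness to that class. Low-UMI clusters had a median depth of less than their libraries' median divided by 3.

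UMIs were summed per library and class, and 2 CPIP were compared with 2 Sham libraries in edgeR 4.0.16 under R 4.3.3 (quasi-likelihood test, TMM, filterByExpr). Genes with a Benjamini-Hochberg adjusted p under 0.05 over all genes tested were called. DESeq2 1.42.0 was an alternative. All 9 members are named, 1 of them without a row, with the 3 most alike genes of each and the 2 highest genes of each list, except 1 gene that is not reported here. The edgeR script was tested on simulated data. The replicate numbers did not deviate together (correlation of deviations -0.16 in C1q-positive cells and -0.21 over all cells), so no pairing was used. Intervals and limits from counts of 0 cover counting error only.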

Additional observations from a re-analysis of the deposited data

How the results depend on the processing

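In C1q-positive cells no gene was called under DESeq2, RLE size factors, doublets kept, the strict cell filter (at least 500 genes, at most 15% mitochondrial UMIs), the whole macrophage class, cells with at least 5 C1q UMIs, or without either of 2 sub-clusters (the neuronal one and sub-cluster 3, both chosen after the data were seen). Without the low-count filter 27 genes and 1 member (Gpnmb) were called. Leaving out 1 library gave 6 to 31 calls (31 without CPIP 1, 19 without Sham 1, 17 without Sham 2, 6 without CPIP 2) and 0 to 2 called members. The lone library of a group is then assumed to vary like the other group, and the cause was not tested. With the replicate block 0 genes were called in C1q-positive cells and 0 over all cells, and a crossed block, added after the data were seen, called 29 and 0. Over all retained cells DESeq2 called 56 genes and 3 members. Leaving out 1 library there gave 0 to 536 calls (536 without CPIP 1, 10 without CPIP 2) and 0 to 4 called members.

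Of 111 alternative fold changes of members in C1q-positive cells, 96 kept sign and call, 5 became called and 10 turned sign. Folr2 turned to -0.01 with doublets kept, -0.01 with the replicate block, -0.34 without CPIP 2, -0.09 without Sham 2, -0.27 without sub-cluster 3 and -0.05 without the neuronal sub-cluster. Pf4 turned to -0.09 without CPIP 1 and -0.08 without Sham 1, and Pla2g2d to -0.59 without CPIP 2 and -0.23 without Sham 2. Leaving out 1 library, the highest values were 0.30 for Folr2, 0.27 for Pf4 and 5.03 for Pla2g2d. Over all cells 1 of 72 turned sign, Pla2g2d to -0.22 without CPIP 2, and its highest value was 4.05, without Sham 1. The log2 ratio of the share of C1q-positive cells lay between 0.70 and 1.45 in every alternative run. Depth limits Trem2 and Folr2 most, with 117 and 194 UMIs in C1q-positive cells.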

Other observations

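In the C1q-positive cells of CPIP 2, C1qa was at 380 CPM, against 147, 96.9 and 114 CPM in Sham 1, Sham 2 and CPIP 1, and 45.9% of its cells had a C1qa UMI, against 17.2% to 21.1%. C1qc was at 2314 CPM there, against 1489 to 1861 CPM. C1q-positive cells were chosen with these genes, so the values describe the population the members were read from.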
